A study of Homo sapiens with 32 samples.

Results

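The 8 genes described here, HMGCS1, IDI1, FDFT1, SQLE, LSS, SC5D, DHCR7 and INSIG1, belong to cholesterol synthesis and its feedback control. They were chosen by name, as sterol pathway genes, and all 8 were found among the 35238 genes of the table. All 8 passed the filter on low values. RNA was sequenced from 4 human endometrial cancer cell lines, with 2 libraries in each of 16 groups. Ishikawa is labelled wild type for CTNNB1, the gene of β-catenin. Ishikawa-S33Y, SNGM and HEC265 are labelled CTNNB1 mutated. Every line received, for 24 h, the vehicle (0.1% DMSO), paclitaxel (a taxane that stabilises microtubules), SM08502 (an inhibitor of CDC-like kinases, which phosphorylate splicing factors), or both drugs. Ishikawa was given 11 nM paclitaxel and 80 nM SM08502, and Ishikawa-S33Y was given 6 nM and 85 nM. SNGM received 11.7 nM paclitaxel and 350.7 nM SM08502, and HEC265 received 5.6 nM and 149 nM. These doses were the inhibitory concentrations for viability of each line, so the line and the dose cannot be told apart. The RNA input was 350 ng for Ishikawa and 500 ng for the other lines, which cannot be told apart from the line either. The libraries of a group come from cells plated in duplicate, and p-values measure only the spread between such libraries, which may be technical. Each group stands for 1 cell line in culture.

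Cholesterol is made from acetyl-CoA through mevalonate, isoprenoids, squalene and lanosterol. The transcription factors SREBP-1 and SREBP-2, encoded by SREBF1 and SREBF2, are held in the endoplasmic reticulum with their escort SCAP and the retention proteins INSIG1 and INSIG2. When membrane sterol is low they travel to the Golgi, are cleaved by proteases and switch on genes of sterol synthesis and uptake, INSIG1 among them. SREBPs bind sterol regulatory elements and E-boxes, and commonly act with the factor NF-Y, which binds CCAAT boxes.

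RefSeq (GRCh38.p14) places HMGCS1 at chr5:43287470-43313412, INSIG1 at chr7:155297878-155310235, IDI1 at chr10:1039152-1056704 and LSS at chr21:46188446-46228774. SC5D lies at chr11:121292771-121313410 and DHCR7 at chr11:71427287-71449043. The span of IDI1 overlaps IDI2-AS1 and WDR37, and it has 3 listed pseudogenes. The spans of INSIG1, FDFT1, DHCR7 and LSS overlap RNA genes, and the strand used in counting is not given in the sources used here, so reads of these loci may be shared. Promoter windows of 250 bases before the start were found for 6 of the 8 genes, 11 windows in all. The windows of INSIG1 and LSS, which were called lower with SM08502 in the mean over the 4 lines, are shown with those of HMGCS1 and IDI1 (1 of their 2 and 3 listed starts, respectively), which were not called in that mean. Capitals mark CCAAT or its reverse complement ATTGG, and, in INSIG1, the E-box TCACGTGA.
INSIG1 (GRCh38.p14, chr7:155297628-155297877, plus strand): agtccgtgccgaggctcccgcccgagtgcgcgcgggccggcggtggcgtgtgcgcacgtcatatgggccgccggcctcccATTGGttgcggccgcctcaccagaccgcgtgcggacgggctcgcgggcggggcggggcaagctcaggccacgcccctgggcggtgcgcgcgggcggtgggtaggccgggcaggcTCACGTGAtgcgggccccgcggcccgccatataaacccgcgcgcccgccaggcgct
LSS (GRCh38.p14, chr21:46228775-46229024, minus strand): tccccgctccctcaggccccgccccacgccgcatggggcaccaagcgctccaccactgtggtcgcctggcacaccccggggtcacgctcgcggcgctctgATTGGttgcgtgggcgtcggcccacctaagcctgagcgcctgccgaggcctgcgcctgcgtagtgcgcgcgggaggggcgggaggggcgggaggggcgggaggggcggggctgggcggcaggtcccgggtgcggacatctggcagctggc
HMGCS1 (GRCh38.p14, chr5:43313413-43313662, minus strand): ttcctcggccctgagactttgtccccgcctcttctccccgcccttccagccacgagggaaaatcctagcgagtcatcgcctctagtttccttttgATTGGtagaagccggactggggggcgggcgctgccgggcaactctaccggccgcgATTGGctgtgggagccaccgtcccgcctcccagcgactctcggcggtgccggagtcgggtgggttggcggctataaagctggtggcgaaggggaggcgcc
IDI1 (GRCh38.p14, chr10:1048887-1049136, minus strand): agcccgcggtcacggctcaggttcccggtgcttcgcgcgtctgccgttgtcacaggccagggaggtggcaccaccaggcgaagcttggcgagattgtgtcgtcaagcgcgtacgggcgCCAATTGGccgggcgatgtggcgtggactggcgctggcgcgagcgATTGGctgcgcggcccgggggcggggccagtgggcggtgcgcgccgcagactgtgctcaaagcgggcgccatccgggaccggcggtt

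The letters CCAAT, searched on both strands, were in 8 of the 11 windows, and in 32.01% of 35116 windows of the same length in the RefSeq table. The 2 windows of SC5D overlap and hold the same ATTGG and the same CACGTG, so those sites are counted in both, and the 11 windows are not independent. In the IDI1 window shown, a CCAAT and an ATTGG overlap. INSIG1 held the palindromic E-box TCACGTGA 56 bases before its start, letters found in 0.854% of all windows. The shorter CACGTG, which lies inside that E-box, was present in INSIG1 and SC5D. The letters TCACNCCAC of a sterol regulatory element were in none of the 11 windows and in 0.883% of all windows. These matches describe letters only. INSIG1 and LSS, called lower with SM08502 in the mean over lines, and genes not called there both had a CCAAT match. For HMGCS1, IDI1 and DHCR7, which were not called, the match depended on the start taken. Each had another listed start whose window held no CCAAT. SQLE and FDFT1, also called lower, were not searched, since windows on chromosome 8 were left out for the listed genes.

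Depth, counted as reads recovered from the table, was 13.0 to 34.1 M reads in 30 libraries. Replicate 2 of the combination had 2.99 M reads in Ishikawa-S33Y and 1.61 M in SNGM. Replicates were furthest apart in Ishikawa, where the log2 difference between them, as a root mean square over 6083 genes, was 0.48 for SM08502 and 0.59 for paclitaxel. It was 0.07 in HEC265 on vehicle. EPCAM, KRT8, KRT18, CDH1 and PAX8, epithelial and Müllerian genes, were present in every library, with EPCAM at 129 CPM or more. SOX17 was at most 0.04 CPM in SNGM and ESR1 at most 0.32 CPM in HEC265. Of the fibroblast markers, COL1A1 reached 707 to 1158 CPM in Ishikawa-S33Y while DCN stayed at 1.03 CPM or less there. CD3E, a T cell marker, was at 0.44 CPM or less in every line. The summed level of the 8 markers of fibroblast, immune and endothelial cells was 719.5 to 1174 CPM in Ishikawa-S33Y and 17.3 to 214.9 CPM in the other lines. Their part in differences between lines was not tested.

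On vehicle, the 8 genes differed between lines by 2.53 to 4.23 times from the highest to the lowest line. SNGM had the lowest level of every gene but LSS, which was lowest in Ishikawa. Levels are in CPM, counts scaled to the total of each library, as mean ± SD (n = 2 per line). CPM is not scaled to gene length, so each gene is compared only with itself. The tests of differences between lines come from limma on log2(CPM + 1), with Benjamini-Hochberg adjustment over the 17011 genes tested.

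HMGCS1, the cytosolic synthase that makes HMG-CoA, was at 112 ± 3.47 CPM in HEC265, 77.3 ± 0.152 in Ishikawa, 61.9 ± 6.23 in Ishikawa-S33Y and 43.8 ± 4.17 in SNGM. Each step of that order passed the test, with adjusted p from 0.000216 to 0.0191 (limma). IDI1, which isomerises isopentenyl diphosphate, was at 108 ± 0.554 CPM in Ishikawa, 71.1 ± 0.940 in HEC265, 63.0 ± 1.49 in Ishikawa-S33Y and 42.9 ± 5.85 in SNGM. HEC265 and Ishikawa-S33Y were not separated (limma adjusted p = 0.316). FDFT1, squalene synthase (chr8:11795582-11839298), was at 129 ± 3.61 CPM in HEC265, 105 ± 15.2 in Ishikawa, 74.7 ± 4.84 in Ishikawa-S33Y and 44.9 ± 6.88 in SNGM, and every step passed.

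SQLE (chr8:124998505-125022283), squalene epoxidase and a rate-limiting enzyme of the later pathway, was at 114 ± 2.22 CPM in HEC265. It was at 65.6 ± 3.57 in Ishikawa-S33Y and 53.5 ± 4.89 in Ishikawa, which were not separated (limma adjusted p = 0.165), and at 27.6 ± 5.16 in SNGM. LSS, lanosterol synthase, had another order: 40.5 ± 2.96 CPM in Ishikawa-S33Y, 29.1 ± 1.35 in SNGM, 20.8 ± 0.0148 in HEC265 and 14.6 ± 1.96 in Ishikawa. In the main fit SNGM and HEC265 were not separated for LSS (limma adjusted p = 0.0526), but other scalings called it lower in HEC265, as given below. Its step from Ishikawa-S33Y to SNGM (limma adjusted p = 0.0473) was lost when any 1 of 26 libraries was left out (every library but those of Ishikawa vehicle, Ishikawa paclitaxel and the SNGM combination), with adjusted p from 0.0505 to 0.196. The widest ranges between lines were those of SC5D, SQLE and INSIG1.

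SC5D, the sterol C5 desaturase, stood at 256 ± 4.41 CPM in Ishikawa, 128 ± 0.440 in Ishikawa-S33Y, 81.8 ± 2.16 in HEC265 and 60.4 ± 7.86 in SNGM. DHCR7, which reduces 7-dehydrocholesterol to cholesterol, was highest in Ishikawa-S33Y at 155 ± 2.66 CPM. Its levels in HEC265 (122 ± 5.30 CPM) and Ishikawa (106 ± 8.54) were not separated (limma adjusted p = 0.138), and SNGM had 60.6 ± 7.12. INSIG1, the retention protein, fell from 120 ± 5.46 CPM in Ishikawa through 80.3 ± 1.16 in Ishikawa-S33Y and 48.9 ± 0.905 in HEC265 to 29.8 ± 4.94 in SNGM, each step passing the test. Against Ishikawa, 5 of the 8 genes were lower and 2 higher in Ishikawa-S33Y, where 48.3% of all genes were called, 28.2% lower and 20% higher. In SNGM 7 were lower and 1 higher than in Ishikawa (66.8% of all genes called, 38.8% lower and 28% higher), and in HEC265 3 were lower and 4 higher (63.3%, 38.3% lower and 24.9% higher). All 8 were lower in SNGM than in Ishikawa-S33Y (60.8% of all genes called, 32.7% lower and 28.1% higher). In HEC265 7 were higher than in SNGM (54.9%, 26% higher and 28.9% lower), and against Ishikawa-S33Y 3 were higher and 4 lower (58%, 26.6% higher and 31.4% lower). With such shares the lines differ widely in general.

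Some of these line differences depended on 1 library. HMGCS1 in Ishikawa-S33Y against Ishikawa was lost without vehicle replicate 1 or 2 of Ishikawa (limma adjusted p = 0.0748 and 0.0656) or replicate 2 of Ishikawa-S33Y (0.205). FDFT1 in HEC265 against Ishikawa was lost without Ishikawa replicate 2 (log2 0.16 in place of 0.31, 0.296) or HEC265 replicate 2 (0.0967). LSS in HEC265 against Ishikawa was lost without Ishikawa replicate 1 (0.218), HEC265 replicate 1 (0.102) or HEC265 replicate 2 (0.101). DHCR7 in HEC265 against Ishikawa-S33Y was lost without Ishikawa-S33Y replicate 1 (0.0617) or HEC265 replicate 2 (0.0842). SC5D in HEC265 against SNGM was lost without SNGM replicate 2 (0.258), HEC265 replicate 1 (0.131) or HEC265 replicate 2 (0.0884). Re-centring libraries on their medians also ended the calls of HMGCS1 between Ishikawa-S33Y and Ishikawa (0.0574), IDI1 between HEC265 and Ishikawa (0.0816), and DHCR7 and SC5D between HEC265 and Ishikawa-S33Y (0.207 and 0.0786). It ended those of SC5D between HEC265 and SNGM (0.0522) and LSS between SNGM and Ishikawa-S33Y (0.0631) too. Quantile normalization ended FDFT1 between HEC265 and Ishikawa (0.261) and SC5D between HEC265 and SNGM (0.212). Without a filter on low genes, LSS between HEC265 and Ishikawa (0.063), LSS between SNGM and Ishikawa-S33Y (0.0797) and SC5D between HEC265 and SNGM (0.0681) were lost. LSS was also lost between HEC265 and Ishikawa with those lines fitted alone (0.102), and between SNGM and Ishikawa-S33Y with a pseudocount of 0.1 (0.061) or a replicate block (0.0511). Scaling also added calls. LSS was called lower in HEC265 than in SNGM with re-centring, quantile normalization or voom. DHCR7 was called higher in HEC265 than in Ishikawa with re-centring or voom, and SQLE higher in Ishikawa-S33Y than in Ishikawa with voom.

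**Figure D1:**
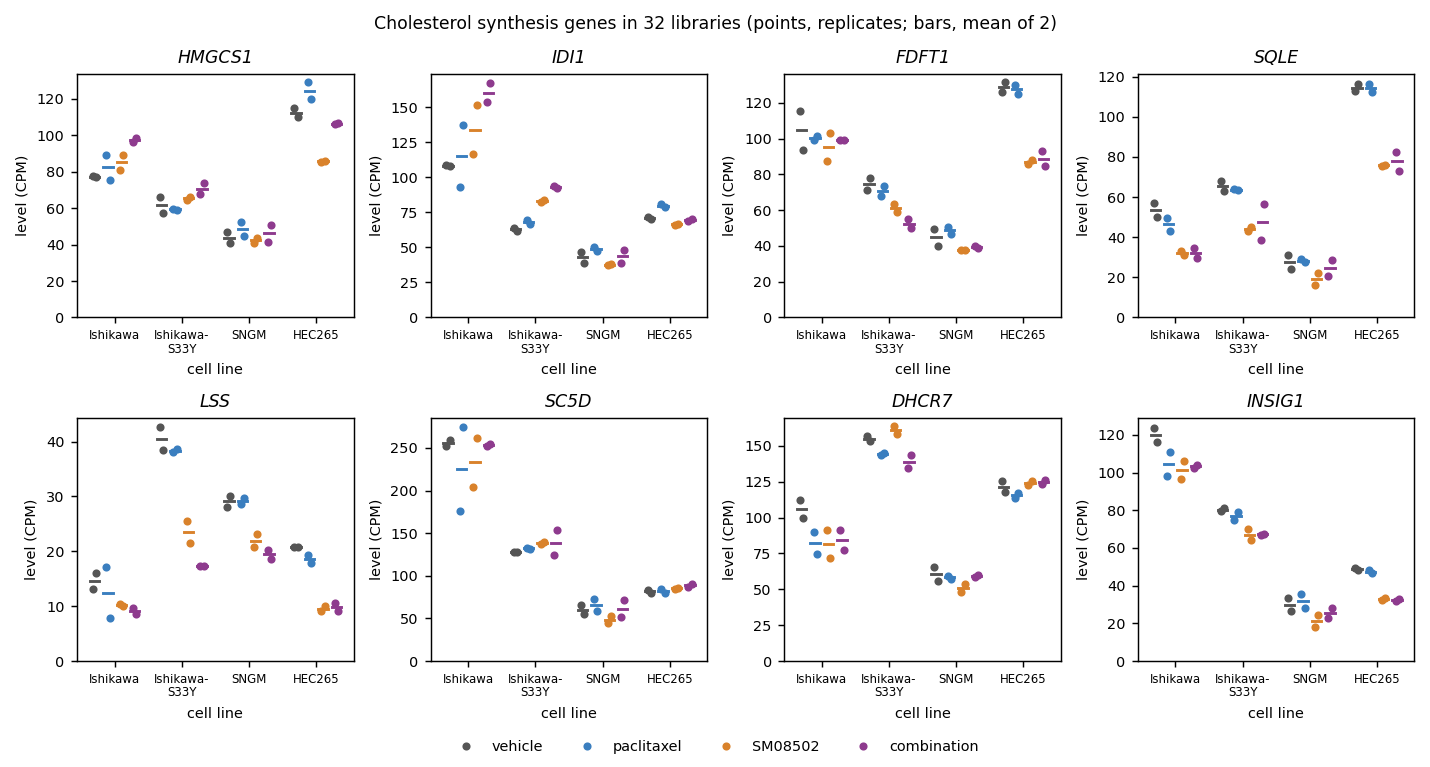
Level of each of the 8 genes in CPM (vertical axis, from 0) in the 32 libraries, by cell line (horizontal axis) and treatment (colour). Points are libraries and bars are means of 2 replicates. SQLE, LSS and INSIG1 with SM08502 lie below both vehicle libraries in every line.

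With SM08502, SQLE, LSS, INSIG1 and FDFT1 fell in the mean over the 4 lines, while HMGCS1, IDI1, SC5D and DHCR7 did not pass the test. The falls were to 0.66-fold for SQLE, 0.63-fold for LSS, 0.77-fold for INSIG1 and 0.81-fold for FDFT1 on the scale of CPM + 1. None of the 8 was called higher in this mean. In this comparison 38.5% of all genes were called, 15.8% of them as lower and 22.6% as higher, all as shares of the genes tested. The median log2 change of the 8 genes was -0.22, and that of all genes was 0.05. The fall in a bulk sample can be of RNA per cell or of the cells that carry it, which cannot be told apart. Of the 10 epithelial markers 7 were also lower in this comparison, and of the 7 tested markers of other cells 1 was lower and 1 higher; their part in the change of the sterol genes was not tested.

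SQLE was at 57.0 and 50.1 CPM on vehicle and 32.96 and 31.3 with SM08502 in Ishikawa. In Ishikawa-S33Y it went from 68.1 and 63.1 CPM to 43.2 and 45.0, and in HEC265 from 113 and 116 to 75.5 and 76.1. In SNGM the values were 31.3 and 24.0 CPM on vehicle and 16.4 and 22.1 with SM08502. The drug-treated libraries lay below both vehicle libraries of their line in all 4 lines. The log2 change of the mean over lines was -0.59 (SE 0.08, limma adjusted p = 1.16e-05). By line it was -0.72 in Ishikawa (limma adjusted p = 0.00662), -0.56 in Ishikawa-S33Y (0.0159), -0.59 in HEC265 (0.0211) and -0.50 in SNGM (0.0745, not passed). SQLE had the evenest response of the 8 genes, with an F test of differences among lines at an adjusted p of 0.907 (limma); that p does not show that the lines respond alike.

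LSS fell furthest in HEC265, from 20.8 in both vehicle libraries to 9.06 and 9.98 CPM with SM08502. It went from 42.6 and 38.4 CPM to 25.6 and 21.5 in Ishikawa-S33Y. In SNGM it was 28.1 and 30.03 CPM on vehicle and 20.7 and 23.2 with SM08502, and in Ishikawa 13.2 and 16.0 against 10.3 and 9.97. Again no SM08502 library reached the vehicle range of its line. The mean log2 change was -0.67 (SE 0.10, limma adjusted p = 1.7e-05). The change passed in HEC265 (log2 -1.05, limma adjusted p = 0.000935) and Ishikawa-S33Y (-0.76, 0.00625), and not in Ishikawa (-0.48, 0.108) or SNGM (-0.39, 0.281).

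INSIG1 fell from 49.5 and 48.3 CPM to 32.5 and 33.5 in HEC265 (log2 -0.55, limma adjusted p = 0.00591). It fell from 33.3 and 26.3 CPM to 18.3 and 24.3 in SNGM (-0.47, 0.0278). In Ishikawa-S33Y the values were 79.4 and 81.1 CPM on vehicle and 69.8 and 64.2 with SM08502, and in Ishikawa 124 and 116 against 96.8 and 106; neither change passed. As for SQLE and LSS, the libraries of the 2 treatments did not overlap within any line. The mean log2 change was -0.38 (SE 0.07, limma adjusted p = 9.26e-05). INSIG1, SQLE, HMGCS1 and IDI1 are all among the genes of this pathway that SREBPs switch on. HMGCS1 and IDI1 did not pass in this mean. A part of SREBP-2 in the fall of INSIG1 and SQLE was not tested.

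FDFT1 fell clearly in HEC265, from 126 and 131 CPM to 85.8 and 88.0 (log2 -0.56, limma adjusted p = 0.00135). In Ishikawa-S33Y it was 71.3 and 78.1 CPM on vehicle and 63.7 and 59.0 with SM08502, and in SNGM 49.7 and 40.03 against 38.0 and 37.8. In Ishikawa the ranges overlapped, at 115 and 93.8 CPM on vehicle and 87.2 and 103 with the drug. None of those 3 lines passed on its own. The mean log2 change was -0.30 (SE 0.05, limma adjusted p = 0.000181).

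The 4 genes that were not called in the mean include the earliest enzymes of the 8. HMGCS1 was at 77.4 and 77.2 CPM on vehicle and 81.0 and 89.4 with SM08502 in Ishikawa, and at 115 and 110 against 85.4 and 86.1 in HEC265. The HEC265 fall was called (log2 -0.38, limma adjusted p = 0.0201), and the values in Ishikawa-S33Y (66.3 and 57.5 against 64.6 and 66.1 CPM) and SNGM (46.7 and 40.8 against 41.0 and 43.8) overlapped. The difference of the HMGCS1 response among lines had an adjusted p of 0.0779 (limma F test).

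IDI1 is the one member that was called higher with the drug in a line. It went from 64.1 and 62.0 CPM to 82.5 and 83.6 in Ishikawa-S33Y (log2 0.39, limma adjusted p = 0.04). That call was lost without any 1 of the 4 libraries compared (0.111 to 0.167). It was also lost in 5 of the 10 other settings, with no intensity trend (0.0518), no filter (0.0669), quantile normalization (0.108), re-centring (0.194) or limma voom (log2 0.26, 0.248). In Ishikawa it was 109 and 108 CPM on vehicle and 117 and 152 with SM08502 (log2 0.29, limma adjusted p = 0.167). In SNGM it was 47.0 and 38.7 against 37.1 and 38.4 CPM, and in HEC265 71.8 and 70.4 against 66.3 and 66.6. The lines thus lie on both sides of no change, and the mean log2 change was 0.11 (limma adjusted p = 0.256).

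DHCR7 was called lower in Ishikawa (112 and 100 CPM against 91.1 and 72.1, log2 -0.38, limma adjusted p = 0.027). Its values were 157 and 153 against 164 and 158 CPM in Ishikawa-S33Y and 125 and 118 against 123 and 126 in HEC265. SC5D was called in no line: it was 253 and 259 against 205 and 261 CPM in Ishikawa, and 83.3 and 80.3 against 84.2 and 86.0 in HEC265. The mean log2 changes were -0.13 for DHCR7 (SE 0.06, limma adjusted p = 0.0677) and -0.07 for SC5D (SE 0.09, 0.557). DHCR7 passed in the mean with re-centring on medians (0.0335), quantile normalization (0.0294) and voom on the reads (0.00172), and HMGCS1 with voom (log2 -0.13, 0.0306). DHCR7 also passed without replicate 1 of SM08502 or either paclitaxel library of Ishikawa, or replicate 2 of vehicle or SM08502 of SNGM (limma adjusted p from 0.013 to 0.0494). In SNGM both genes were below their vehicle range with the drug, DHCR7 at 47.8 and 54.0 against 65.7 and 55.6 CPM and SC5D at 44.7 and 52.4 against 66.0 and 54.9, and neither passed.

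Within lines the number of the 8 genes called with SM08502 was 5 in HEC265, all lower, where 14.7% of all genes were called, 5.39% lower and 9.27% higher. In Ishikawa it was 2, both lower (15.2% of all genes, 8.68% lower and 6.5% higher). Ishikawa-S33Y had 3, of which 2 were lower and 1 higher (29.1%, 10.6% lower and 18.5% higher). SNGM had 1, lower (7.86%, 4.06% lower and 3.8% higher). The median log2 change of the 8 genes in HEC265 was -0.47, against 0.07 for all genes. No member passed the F test of different SM08502 responses among the 4 lines (limma, 0 of 8 at an adjusted p under 0.05 and 3 of 8 at an unadjusted p under 0.05), which 12.4% of all genes passed. The calls in 1 line are therefore not shown to be particular to it.

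Markers of other cells and of epithelium also moved with the drug by line. CD68, a macrophage marker, was at 8.99 and 8.42 CPM on vehicle and 34.3 and 38.7 with SM08502 in HEC265, the line with the most members called (log2 1.95, limma adjusted p = 8.08e-07). It was higher with SM08502 in Ishikawa too (log2 0.56, limma adjusted p = 0.0455), in SNGM (0.92, 0.00303) and Ishikawa-S33Y (0.71, 0.00706), and its response differed among the lines (limma F test, adjusted p = 0.00481). With the combination CD68 reached 38.2 and 50.4 CPM in HEC265 (log2 2.21, limma adjusted p = 8.21e-08) and did not pass in the other lines. Of the 7 tested markers of other cells it was the one called higher in a line with either treatment, and COL1A1, a collagen gene, was the one called lower, in Ishikawa (log2 -1.59 with SM08502 and -1.48 with the combination, limma adjusted p = 0.00594 and 0.00659). CDH1, the epithelial cadherin, went in HEC265 from 565 and 574 CPM to 342 and 361 with SM08502 (log2 -0.70, limma adjusted p = 0.0269) and to 339.7 and 314 with the combination (-0.80, 0.00869). Of the 10 epithelial markers SM08502 lowered 1 in HEC265, 6 in Ishikawa, 6 in Ishikawa-S33Y, where 1 was higher, and 0 in SNGM. Of all genes 5.39%, 8.68%, 10.6% and 4.06% were called lower in these lines, in that order, and 18.5% higher in Ishikawa-S33Y. In HEC265 the mean levels of EPCAM (257 to 284 CPM) and KRT19 (258 to 350 CPM) were higher with SM08502, and those of all other listed epithelial markers lower. The combination lowered 2 of the 10 in HEC265, 6 in Ishikawa, 8 in Ishikawa-S33Y and 2 in SNGM, with 1 higher in each line. In the same order, 7.16%, 11.2%, 18% and 7.54% of all genes were called lower with it, and 12.4%, 11.6%, 24% and 10.8% higher. In the mean over lines of the combination 7 epithelial markers were lower and 2 higher, with 1 lower and 1 higher of the 7 markers of other cells. There 20.1% of all genes were called lower and 29% higher. The part of these markers in the change of the sterol genes was not tested.

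The mean falls of SQLE, LSS, INSIG1 and FDFT1 were called under every setting tried and without any 1 library. Calls within a line, which rest on 2 libraries a group, were less stable. SQLE was lost in Ishikawa without vehicle replicate 1 (limma adjusted p = 0.07) or SM08502 replicate 2 (0.0598), and in Ishikawa-S33Y and HEC265 without any 1 of the 4 libraries compared (0.051 to 0.105 and 0.0983 to 0.123). LSS in Ishikawa-S33Y was lost without vehicle replicate 1 (0.0608) or SM08502 replicate 2 (0.082). INSIG1 was lost in HEC265 without vehicle replicate 1 (0.0567) or SM08502 replicate 1 (0.0564), and in SNGM without vehicle replicate 1 (log2 -0.31, 0.331) or SM08502 replicate 1 (log2 -0.27, 0.422). HMGCS1 in HEC265 was lost without any 1 of its 4 libraries (0.0775 to 0.147). DHCR7 in Ishikawa was lost without vehicle replicate 1 (log2 -0.30, 0.192), vehicle replicate 2 (0.0504) or SM08502 replicate 2 (log2 -0.21, 0.366). LSS and FDFT1 in HEC265 were called whichever library was left out. With the line fitted alone, SQLE (0.0881) and DHCR7 (0.294) in Ishikawa and INSIG1 in SNGM (0.377) were not called. Re-centring ended DHCR7 in Ishikawa (0.0528) and INSIG1 in SNGM (0.0954), and a replicate block ended INSIG1 in SNGM (0.053).

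**Figure D2:**
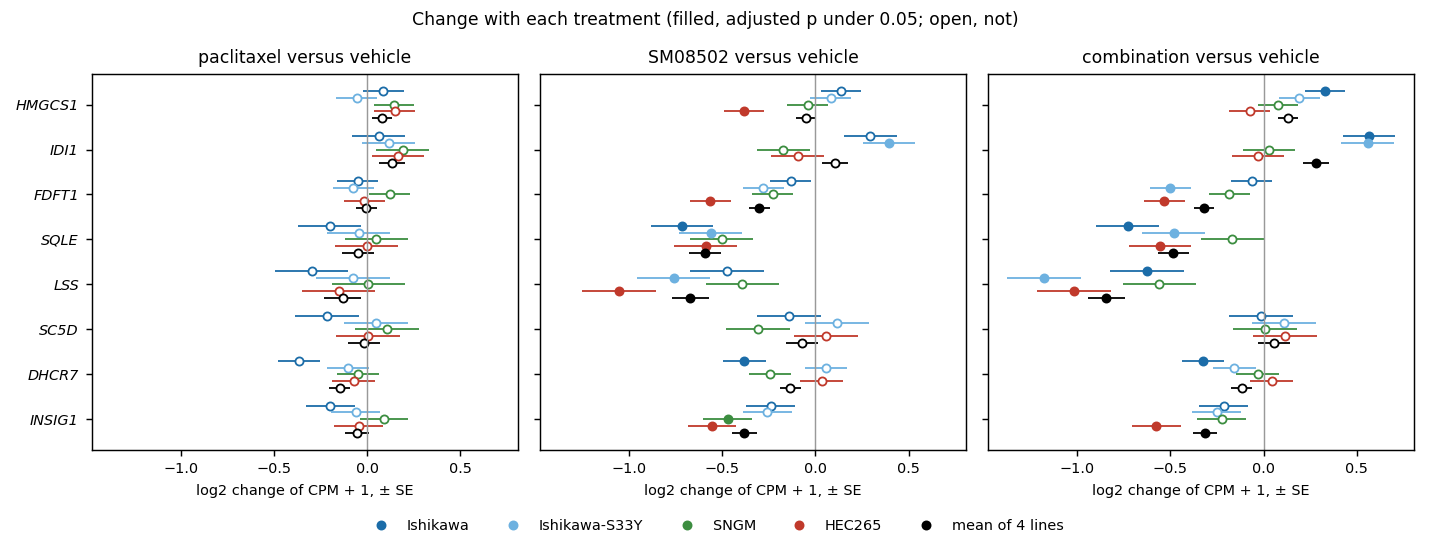
Log2 change of CPM + 1 against vehicle (horizontal axis, ± SE from limma) for each gene (vertical axis), by treatment (panels) and line (colour), with the mean over the 4 lines in black. Filled points passed an adjusted p of 0.05. No point is filled for paclitaxel, and SQLE, LSS, INSIG1 and FDFT1 are filled for the mean with SM08502 and with the combination.

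Paclitaxel alone moved none of the 8 genes past the test. The call count was 0 of 8 in the mean over lines, where 0% of all genes were called by limma and 1 of the 8, DHCR7, had an unadjusted p under 0.05 (log2 -0.15, SE 0.06). It was also 0 of 8 in Ishikawa (0.0118% of all genes), Ishikawa-S33Y (0%), SNGM (0.0176%) and HEC265 (0.00588%). At an unadjusted p under 0.05 the members were 1 in Ishikawa, again DHCR7, and 0 in each other line. SQLE, for example, was at 116 and 112 CPM with paclitaxel in HEC265 against 113 and 116 on vehicle. LSS was at 38.1 and 38.6 CPM against 42.6 and 38.4 in Ishikawa-S33Y. In Ishikawa the paclitaxel replicates were far apart for some members, with SC5D at 176 and 274 CPM, IDI1 at 93.0 and 137 and LSS at 17.1 and 7.81.

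With both drugs, LSS, SQLE, INSIG1 and FDFT1 were lower than vehicle in the mean over lines and IDI1 was higher. The mean log2 changes were -0.84 for LSS (SE 0.10, limma adjusted p = 5.76e-07), -0.48 for SQLE (SE 0.08, 6.99e-05), -0.32 for INSIG1 (SE 0.07, 0.000415) and -0.32 for FDFT1 (SE 0.05, 6.03e-05). IDI1 rose by 0.28 (SE 0.07, limma adjusted p = 0.00241), and with limma voom on the recovered reads the change was 0.14 (limma voom adjusted p = 0.224). HMGCS1 (0.13, limma adjusted p = 0.0532; -0.02 with voom), DHCR7 (-0.12, 0.0903) and SC5D (0.05, 0.625; -0.11 with voom) did not pass. HMGCS1 passed when any 1 of 10 libraries was left out, down to 0.0118 without SNGM combination replicate 1, and DHCR7 without Ishikawa combination replicate 1 (0.0466) or SNGM vehicle replicate 2 (0.0448). Here 49.1% of all genes were called, 20.1% as lower and 29% as higher. With re-centring, quantile normalization or limma voom, 5 members were called lower in this mean in place of 4. DHCR7 was the one uncalled member with a fall in the main fit. Combination and SM08502 are compared with the same vehicle libraries, so the 2 sets of changes are not independent.

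LSS with the combination was at 10.5 and 9.12 CPM in HEC265, 9.65 and 8.51 in Ishikawa, 20.2 and 18.7 in SNGM and 17.3 and 17.4 in Ishikawa-S33Y. All 8 of those libraries lay below the vehicle range of their line. The change passed in Ishikawa-S33Y (log2 -1.18, limma adjusted p = 7.13e-05), HEC265 (-1.02, 0.000872) and Ishikawa (-0.63, 0.0269), and in SNGM it had log2 -0.56 (0.0531). On the scale of CPM + 1, LSS was at 0.44-fold of vehicle in Ishikawa-S33Y and 0.49-fold in HEC265. IDI1 with the combination was at 154 and 167 CPM in Ishikawa (log2 0.56, limma adjusted p = 0.00674) and 94.1 and 92.3 in Ishikawa-S33Y (0.56, 0.0031), above every vehicle library of those lines. In SNGM it was at 39.1 and 48.5 CPM, overlapping vehicle, and in HEC265 at 68.8 and 70.3, just under the vehicle libraries at 71.8 and 70.4.

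SQLE with both drugs was at 34.4 and 29.4 CPM in Ishikawa (log2 -0.73, limma adjusted p = 0.00392), 38.4 and 56.5 in Ishikawa-S33Y (-0.48, 0.0255) and 82.4 and 73.0 in HEC265 (-0.56, 0.0229). In SNGM it was at 20.5 and 28.6 CPM, overlapping the vehicle libraries. INSIG1 passed in HEC265, at 32.05 and 32.9 CPM (log2 -0.58, limma adjusted p = 0.0032). FDFT1 passed in Ishikawa-S33Y, at 54.9 and 50.1 CPM (log2 -0.50, limma adjusted p = 0.00101), and in HEC265, at 92.9 and 84.8 (-0.53, 0.00144). In Ishikawa HMGCS1 was higher, at 96.3 and 98.5 CPM (log2 0.33, limma adjusted p = 0.034), and DHCR7 lower, at 91.5 and 77.6 (-0.33, 0.0435).

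By line the combination called 5 of the 8 genes in Ishikawa, 2 higher and 3 lower (22.8% of all genes, 11.6% higher and 11.2% lower). It called 4 in Ishikawa-S33Y, 1 higher and 3 lower (42%, 24% higher and 18% lower), and 4 in HEC265, all lower (19.5%, 7.16% lower and 12.4% higher). In SNGM limma called 0 (18.4% of all genes, 7.54% lower and 10.8% higher) and 1 of 8, LSS, had an unadjusted p under 0.05. IDI1 was the one member whose combination response differed among the 4 lines (limma F test, adjusted p = 0.0312; 27.1% of all genes passed). That call was lost when any 1 of 10 libraries was left out (0.0514 to 0.0683): the vehicle libraries of Ishikawa, Ishikawa-S33Y and HEC265, vehicle replicate 1 of SNGM, combination replicate 2 of Ishikawa and both combination libraries of HEC265. FDFT1 had an adjusted p of 0.0518 in the same test. Against SM08502 alone, the combination called 0 of 8 in each line by limma: Ishikawa (0% of all genes, 0 members at an unadjusted p under 0.05), Ishikawa-S33Y (0.129%, with 0.0588% higher and 0.0705% lower; 1 member, LSS), SNGM (0.253%, with 0.235% higher and 0.0176% lower; 0 members) and HEC265 (0.00588%, 1 member, HMGCS1).

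The shallow replicate 2 of the combination in Ishikawa-S33Y carried the higher of the SQLE values there: without it the log2 change was -0.76 (limma adjusted p = 0.00331), and without replicate 1 it was -0.21 (0.383). SQLE was also lost there without vehicle replicate 1 (0.134) or 2 (0.0602). Without both shallow libraries the mean changes were -0.61 for SQLE, -0.35 for INSIG1, 0.24 for IDI1, -0.30 for FDFT1 and -0.83 for LSS, all still called. SQLE was lost in Ishikawa without combination replicate 2 (0.0635), and in HEC265 without vehicle replicate 1 (0.0945), vehicle replicate 2 (0.119) or combination replicate 2 (0.191). In Ishikawa, IDI1 was lost without combination replicate 2 (0.0751), LSS without vehicle replicate 2 (0.201), combination replicate 1 (0.0657) or combination replicate 2 (0.171), and HMGCS1 without any 1 of the 4 libraries compared (0.105 to 0.159). DHCR7 in Ishikawa was lost without any 1 of 19 libraries (0.0507 to 0.366), namely both vehicle libraries and combination replicate 2 of Ishikawa, all 8 of HEC265, those of Ishikawa-S33Y other than the combination and both paclitaxel libraries of SNGM, and reached log2 -0.21 without combination replicate 2. With Ishikawa fitted alone its calls of SQLE (0.0572), IDI1 (0.175), HMGCS1 (0.183), LSS (0.293) and DHCR7 (0.3) were lost. HMGCS1 was also lost with a replicate block (0.0544), and DHCR7 with no filter (0.0599), no intensity trend (0.0599) or re-centring (0.0779).

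Of 14 other enzymes of sterol synthesis, 5 were lower and 2 higher with SM08502 in the mean over lines. The lists of other genes are read against the same 38.5% of all genes. The lower ones included TM7SF2, a sterol C14 reductase (log2 -0.59, SE 0.12, limma adjusted p = 0.000443) and FDPS, farnesyl diphosphate synthase (-0.45, SE 0.07, 3.86e-05). The higher ones were MVK, mevalonate kinase (0.28, SE 0.07, limma adjusted p = 0.00464), and GGPS1, geranylgeranyl diphosphate synthase on the isoprenoid branch (0.25, SE 0.05, 0.00034). FDPS in Ishikawa-S33Y went from 71.6 and 71.4 CPM to 39.4 and 39.3. The median log2 change of the 14 enzymes was -0.10, and that of all genes 0.05.

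**Figure D3:**
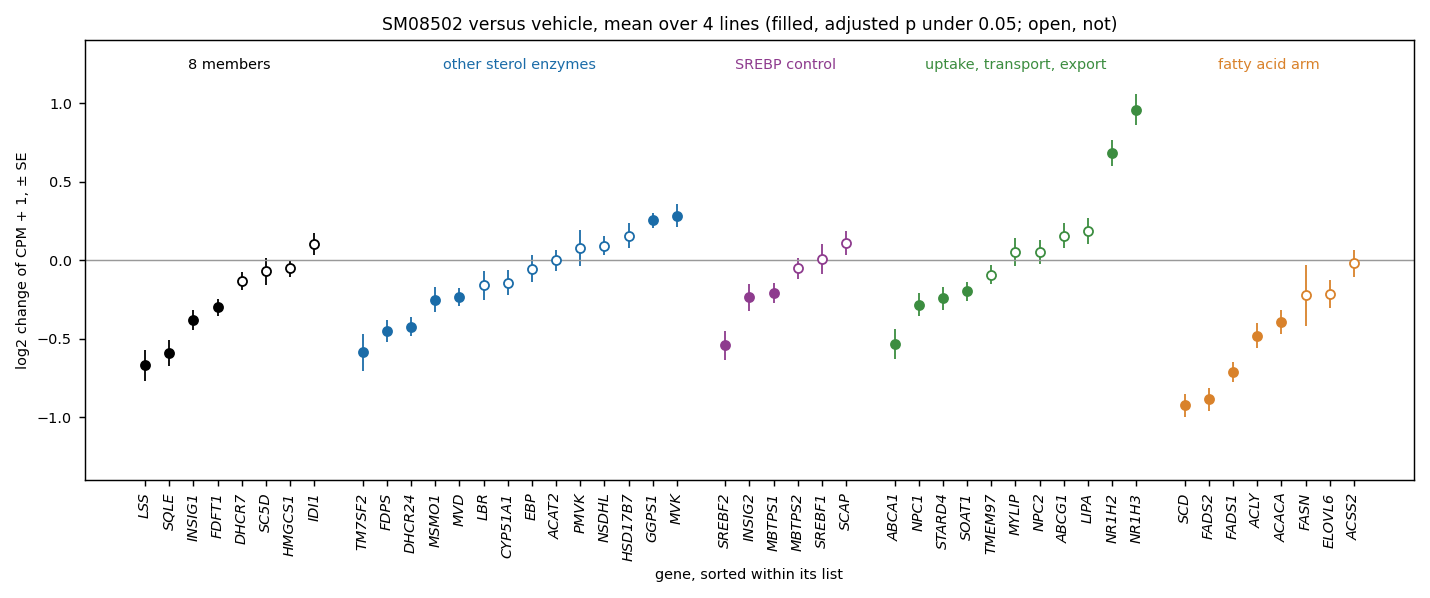
Log2 change of CPM + 1 with SM08502 against vehicle, mean over 4 lines (vertical axis, ± SE from limma), for the 8 members and 39 further genes of sterol and fatty acid metabolism, grouped by list and sorted (horizontal axis). Filled points passed an adjusted p of 0.05. Called falls outnumber called rises in each of the lists shown, and the fatty acid list has no filled point above 0.

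Among 6 genes of SREBP control, 3 were lower and 0 higher. SREBF2 fell (log2 -0.54, SE 0.09, limma adjusted p = 9.32e-05), and SREBF1 did not pass (0.01, SE 0.10, 0.968; its sign turns with the scaling). SREBF2 was at 180 and 172 CPM on vehicle and 104 and 96.1 with SM08502 in Ishikawa-S33Y (log2 -0.81, limma adjusted p = 0.0025). It was at 124 and 118 CPM against 85.8 and 87.6 in HEC265 (-0.48, 0.0958), 89.8 and 95.9 against 70.0 and 74.4 in SNGM (-0.36, 0.298), and 101 and 106 against 94.0 and 54.9 in Ishikawa (-0.53, 0.0595). In each line both drug-treated libraries were below both vehicle libraries. INSIG2, the paralogue of INSIG1, was lower in the mean (log2 -0.24, SE 0.08, limma adjusted p = 0.0299), a call lost with no filter (0.0539), with re-centring (0.0578) and without any 1 of 9 libraries (0.0505 to 0.0979). These libraries were vehicle replicate 1 and SM08502 replicate 1 of Ishikawa and of SNGM, replicate 2 of both in Ishikawa-S33Y, both vehicle libraries of HEC265 and its SM08502 replicate 2. INSIG2 went from 49.5 and 50.3 CPM to 32.6 and 25.5 in Ishikawa-S33Y (log2 -0.77, limma adjusted p = 0.00171) and from 27.9 and 26.4 to 29.2 and 34.97 in Ishikawa. SCAP was not called in the mean (0.11, SE 0.08, limma adjusted p = 0.285) and was higher in HEC265, from 75.5 and 72.4 to 103 and 104 CPM (0.48, 0.0385).

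**Figure D4:**
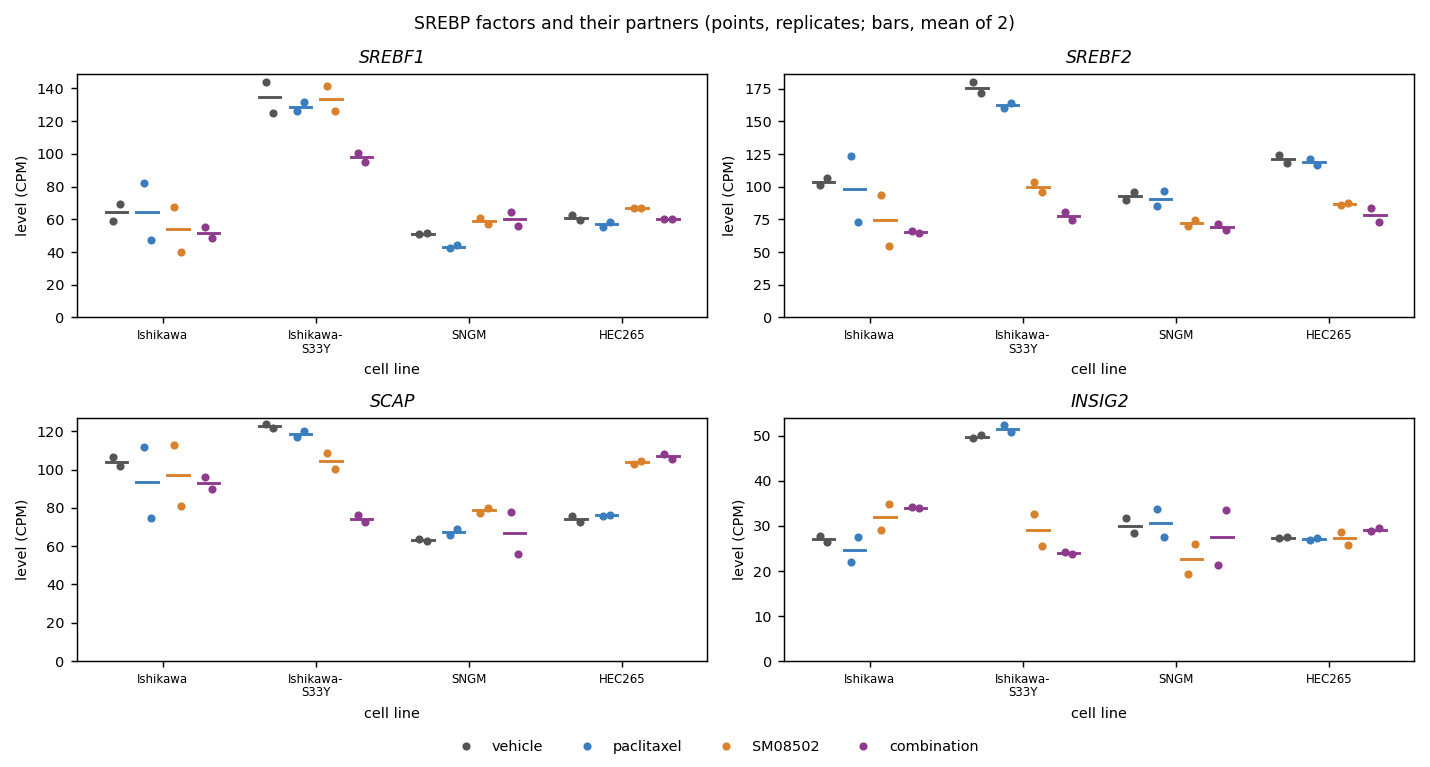
Level in CPM (vertical axis, from 0) of SREBF1, SREBF2, SCAP and INSIG2 in the 32 libraries, by cell line (horizontal axis) and treatment (colour). Points are libraries and bars are means of 2 replicates. SREBF2 with SM08502 lies below both vehicle libraries in every line.

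Of 11 genes of sterol uptake, transport and export, 4 were lower and 2 higher with SM08502. ABCA1, the cholesterol exporter, was lower (-0.53, SE 0.10, limma adjusted p = 0.00019), and so was NPC1, which moves cholesterol out of lysosomes (-0.28, SE 0.07, 0.00382). NPC1 passed on its own in SNGM, from 238 and 210.5 CPM to 142 and 169.96 (log2 -0.52, limma adjusted p = 0.0273). NR1H3 and NR1H2, which encode the liver X receptors, rose (0.96, SE 0.10, 2.11e-07 and 0.68, SE 0.08, 1.22e-06, both limma adjusted p). NR1H3 rose in every line, for example from 4.12 and 4.13 to 11.3 and 10.3 CPM in SNGM.

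Of 8 genes of the fatty acid arm, which SREBP-1 serves, 5 were lower and 0 higher. SCD, stearoyl-CoA desaturase, fell to 0.53-fold (log2 -0.93, SE 0.07, limma adjusted p = 5.02e-09), and passed in each line, from 266 and 258 to 101 and 91.5 CPM in HEC265 and from 51.3 and 47.5 to 35.01 and 35.2 in SNGM. FADS2, the Δ6 desaturase, fell to 0.54-fold (-0.89, SE 0.07, limma adjusted p = 1.09e-08), from 293 and 294 to 118 and 111 CPM in Ishikawa-S33Y, while SNGM had 22.7 and 23.6 against 19.2 and 22.5. The median log2 change of the fatty acid list was -0.44, and that of the 8 members was -0.22. With the combination the lists gave 4 lower and 4 higher of the 14 enzymes, 2 lower and 0 higher for SREBP control, 4 lower and 5 higher for uptake and export, and 6 lower and 0 higher for the fatty acid arm. In that mean over lines 49.1% of all genes were called, 20.1% lower and 29% higher. With paclitaxel alone none of these lists had a call in the mean over lines, where 0% of all genes were called.

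After the mean of each line was taken off, some members varied together over the 32 libraries, by Pearson correlation of log2(CPM + 1), given as a description. INSIG1 correlated with FDFT1 (r = 0.84) and SQLE (0.81), FDFT1 with LSS (0.80), and SQLE with LSS (0.76). HMGCS1 went with IDI1 (0.64), and IDI1 with SC5D (0.60), while IDI1 and LSS had r = -0.45. These points share treatment groups and library depth. The genes whose pattern was most like the mean of the 8 members, among 10415 candidates over the same libraries, were TMED7 (r = 0.90), SCAMP1 (0.90), AZIN1 (0.89), TMEM123 (0.88) and SLC25A24 (0.87).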

How the data were processed

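The deposited table holds log10 of CPM plus 1, set by the authors, for 35238 genes in 32 libraries; the base and the offset were settled from the values, since CPM taken back from them sum to 1000000 in each library. Per the submitters' processing notes, bcl2fastq, kallisto and STAR and the build GRCh38 were used, in roles not given in the sources used here; neither the gene annotation nor strandedness is given there. Values were whole multiples of what 1 read is worth (100% of values within 0.01), which gave the depth. Per the labels' protocols, ribosomal RNA was depleted and libraries were made with a KAPA mRNA kit.

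The filter kept 17011 genes, those over 1 CPM in 2 or more libraries. A limma model (limma 3.58.1, R 4.3.3) of log2(CPM + 1), a pseudocount that understates changes of low genes, was fitted with 1 mean for each of 16 groups, an intensity trend, 16 residual and 4.90 prior degrees of freedom. The means over lines weigh the 4 lines equally. Tests of single differences are two-sided, and an F test compared responses among lines, with Benjamini-Hochberg adjustment over the genes tested and a call at an adjusted p under 0.05. The procedure was tested on simulated data, with the same spread beyond counting noise set for every library. Real replicates differed in spread between groups, which that simulation does not cover. The fit takes 1 spread per gene from all groups, so p-values within a line do not follow that line's own spread.

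Groups come from the titles. The 8 members, the lists and the tests were chosen with earlier results of these data known. Genes that are no members were named by a fixed rule: SREBF1, SREBF2, SCAP and INSIG2 always, and up to 2 rises and 2 falls of each list that are largest among those called in the mean over lines with SM08502. The markers CD68, CDH1 and COL1A1 were chosen for values by line after their values were seen. The alternatives were no filter, a stricter filter (mean log2 of at least 2), a pseudocount of 0.1, median re-centring, quantile normalization, no trend, a replicate block, the compared lines alone, limma voom on the recovered reads, leaving out both shallow libraries, and leaving out each library. Some genes of the lists are not reported here, and the counts and the rule leave them out. Tables of splicing events were not used here.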

Additional observations from a re-analysis of the deposited data

Results flagged for a closer look

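For the SM08502 response or the combination response, the following genes differed among the 4 lines by limma's F test (adjusted p over the 17011 genes tested), at a background of 12.4% of all genes for SM08502 and 27.1% for the combination. Of the 8 members it was IDI1 alone, for the combination (0.0312), with a log2 change of -0.03 in HEC265, 0.03 in SNGM and 0.56 in both other lines. Of the other named genes, the SM08502 response differed for FADS2 (0.00271), SCD (0.02), INSIG2 (0.0265) and ABCA1 (0.0289). INSIG2 fell in Ishikawa-S33Y (log2 -0.77), ABCA1 fell in HEC265 (-1.16), and SCD fell most in HEC265 (-1.43) and least in SNGM (-0.48). The combination response differed for FADS2 (2.18e-05), SCD (0.000404), TM7SF2 (0.00104), INSIG2 (0.00153), SCAP (0.00206), FDPS (0.0121) and MVK (0.0363). SCAP moved in opposite directions with the combination, from 124 and 122 to 76.1 and 72.5 CPM in Ishikawa-S33Y (log2 -0.72) and from 75.5 and 72.4 to 108 and 106 in HEC265 (0.53). TM7SF2 in Ishikawa-S33Y was at 39.3 and 38.8 CPM on vehicle and 13.8 and 5.01 with the combination, the latter in the shallow library. Of the markers given by line, the response of CD68 differed for SM08502 (0.00481) and the combination (6.69e-05), and that of CDH1 for the combination (0.0163). Other epithelial markers differed too. The responses of KRT18 (0.000377 and 2.96e-06), SOX17 (0.000816 and 6.09e-06), KRT8 (0.00352 and 0.000134) and KRT19 (0.0433 and 0.00139) differed for both treatments. Those of HOXA10 (0.000722) and ESR1 (0.032) differed for the combination. With the combination CD68 rose in HEC265 (log2 2.21), and CDH1 fell in HEC265 (-0.80), Ishikawa (-0.85) and Ishikawa-S33Y (-1.09) and was at 0.12 in SNGM.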

How the results depend on the processing

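Of 77 called changes or line differences of single members, 0 changed sign over 42 settings and 52 were called under every one. Of 123 that were not called, 55 changed sign in at least 1 setting. Members called with SM08502 in Ishikawa went from 2 to 1 with re-centring and 0 with the line fitted alone, and with the combination from 5 to 0 alone. With SM08502, Ishikawa-S33Y went from 3 to 5 alone. SNGM went from 1 to 0 with re-centring or alone, 3 with voom and 2 without the shallow libraries. The SNGM combination went from 0 to 1 with the stricter filter, re-centring, quantile normalization or voom. The test of differing SM08502 responses went from 0 to 1, HMGCS1, with re-centring, quantile normalization, voom or without the shallow libraries. That of combination responses went from 1 to 0 without a filter and to 2 with the stricter filter, re-centring, quantile normalization or voom. Lines fitted alone have fewer samples and take the spread from the lines compared only. The main fit takes 1 spread per gene from all groups. Its p-values within a line thus do not follow that line's own spread. The root mean square difference between replicates was 0.10 to 0.59 in the groups of Ishikawa and 0.08 to 0.25 in those of Ishikawa-S33Y. The cause of these moves was not tested.

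Leaving out each library in turn gave 0 to 3 members for SM08502, 0 to 2 for paclitaxel and 0 to 5 for the combination in Ishikawa. It gave 0 to 4 for SM08502 and 3 to 4 for the combination in Ishikawa-S33Y, and 0 to 2, 0 to 1 and 0 to 2 for SM08502, the combination and the combination against SM08502 in SNGM. HEC265 gave 2 to 5 for SM08502 and 3 to 4 for the combination, and the tests among lines gave 0 to 3 each. The means over lines gave 4 to 5 for SM08502 and 5 to 6 for the combination. The line differences on vehicle gave 5 to 8.

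SREBF1 (mean, SM08502) turned to -0.00901 with re-centring, -0.0246 with quantile normalization and -0.0729 with voom, and lay between -0.0846 and 0.0972 with 1 library left out. With the combination HMGCS1 turned to -0.0198 with voom, and SC5D to -0.113 with voom and -0.0418 without both shallow libraries. SC5D lay between -0.00486, without SNGM combination replicate 2, and 0.114 with 1 library left out. The median of all genes moved by over 0.1 with scaling in HEC265 against Ishikawa (0.272) and Ishikawa-S33Y (0.230), SNGM against those lines (0.153 and 0.117), the HEC265 combination (0.108) and Ishikawa-S33Y SM08502 (0.101).

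Replicate numbers do not pair the samples in a constant direction. The correlation of same-numbered deviations ran from -0.57 to 0.86 in Ishikawa and from -0.65 to 0.84 in SNGM. It ran from -0.12 to 0.14 in Ishikawa-S33Y and from -0.15 to 0.33 in HEC265. In Ishikawa and SNGM some treatments thus shared a replicate difference, in the same or the opposite direction, which the main fit does not model. Its source was not tested. With a replicate block the SNGM SM08502 count was 0 (INSIG1, limma adjusted p = 0.053), that of the Ishikawa combination was 4 and those of the means over lines were 5 and 6. The block adds DHCR7 in both means. Counts with pairs blocked were otherwise those reported, but for LSS between SNGM and Ishikawa-S33Y (0.0511). With 2 libraries a group, a difference that did not pass is not shown to be absent.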
